A study of Mus musculus with 6 samples.

Results

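The baseline transcriptome of the normal mouse thoracic aortic wall was described from 4 wild-type (WT) libraries, WT-1 to WT-4, out of the 6 bulk RNA sequencing libraries of the study. The members were every one of the 52636 annotated genes as counted in these 4 libraries, and the knockout libraries entered no value here. WT mice were untreated C57BL/6J animals, and their thoracic aortas were taken at 12 weeks of age. The study used male mice, excised the vessel from above the aortic root to the diaphragm and flushed it with saline, so each library holds the RNA of all cell types of the wall, whatever adventitia and perivascular tissue stayed attached, and any blood left in it. The study describes the WT libraries as 4 mice, so the spread among them holds differences between mice as well as technical ones, which cannot be told apart. The sorting of the count columns to these libraries was inferred from their column codes.

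The aortic wall is built from an inner endothelium, a media of smooth muscle cells between elastic sheets, and an outer adventitia of fibroblasts and collagen. Differentiated smooth muscle cells carry a contractile apparatus in which smooth muscle actin thin filaments slide along myosin thick filaments, and they also produce much of the elastin, collagen and proteoglycan around them. The genes of the contractile apparatus are known targets of serum response factor, which binds the CArG box with its partner myocardin.

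The depth was 21807734, 25801352, 23969361 and 22361116 counts in WT-1 to WT-4. Counts were expressed as CPM (counts scaled to a common library total), which give the share of a library, and as TPM, a scale in which counts are divided by exon length so that levels of different genes can be compared. Values are given as mean ± SD over the 4 libraries (n = 4), and the coefficient of variation (CV) is that of CPM. Some count was present for 24185 genes, and 28451 genes had none in any WT library, where a count of 0 allows up to 0.116 to 0.138 CPM for counting error alone. A CPM of at least 1 in all 4 libraries was reached by 12957 genes, 24.6% of the annotation, and these are called detected. Of them, 12094 were protein coding.

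WT-1 had the most extreme value of the libraries in several measures. Its 10 highest genes took 13.4% of its counts, against 10.7 to 10.8% in WT-2 to WT-4. The first of them, the single noncoding locus Gm42418, was at 46731 CPM in WT-1 and at 18906 to 34902 CPM in the others. The highest genes supplied 50% of the counts with 514 genes in WT-1 and 606, 577 and 619 genes in WT-2 to WT-4. Of these measures, only the share of the 10 highest genes was set apart by Dixon's limit, explained with the flagged results. Class shares without WT-1 stand beside the results that it touches.

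Contractile and matrix genes held the largest mean shares of counts among the 6 classes examined, although in WT-1 the noncoding share was above that of matrix genes. The 31 contractile genes took 8.07% ± 0.311 of all counts, with 8.06, 7.95, 8.5 and 7.77% in WT-1 to WT-4. This class joins thin filament genes, thick filament genes with their regulators, and genes of filaments, dense bodies and adhesion plaques. The 16 genes of the thin and thick filament alone took 5.39% ± 0.258, with 5.39, 5.22, 5.75 and 5.2%, below the share of matrix genes in each library. The 74 matrix genes took 6.41% ± 0.306, with 6.26, 6.87, 6.28 and 6.25%, so that WT-2 lay above the other libraries, which sat within a narrow band. Noncoding genes took 4.68% ± 1.47 and the mitochondrial chromosome 3.6% ± 0.938, both with wide spread. The 11 fibroblast genes and 21 endothelial genes took 0.327% ± 0.0392 and 0.136% ± 0.025. The order differed for shares of TPM, with noncoding genes first at 12.1%, then mitochondrial genes at 9.63%, contractile genes at 7.82% and matrix genes at 4.11%. Noncoding genes other than the single locus Gm42418 held 6.34% of TPM, below mitochondrial and contractile genes. Features annotated as miRNA, which are short, held 4.77% of TPM but 0.121% of counts. Among them the 57-base Gm23935 was listed at 22347 TPM. In a bulk sample, fewer cells of a type and less RNA per cell cannot be told apart. Detected members numbered 31 of 31 contractile, 67 of 74 matrix, 20 of 21 endothelial, 11 of 11 fibroblast, 17 of 37 mitochondrial and 504 of 15022 noncoding genes. Over the whole annotation 24.6% of genes were detected, and 12094 of 21896 protein-coding genes, 55.2%. These shares also stand beside the counts of detected genes given for lists below.

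**Figure D1:**
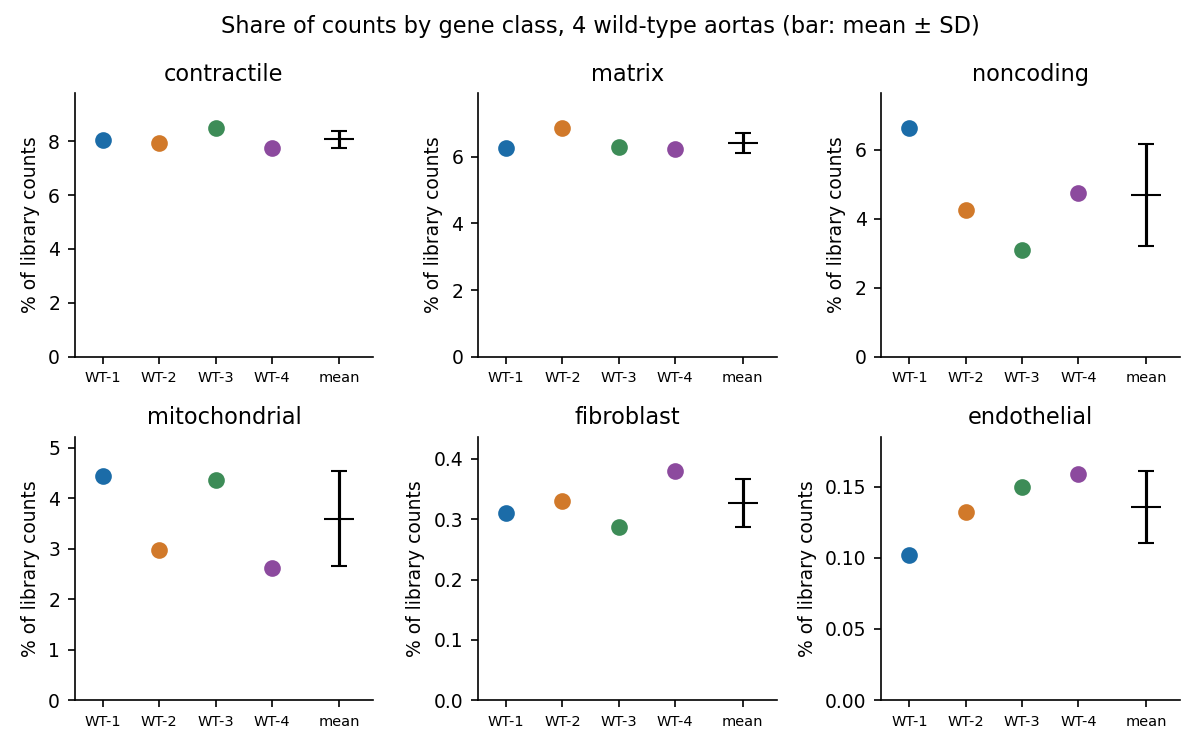
Percent of each library's counts (y axis, from 0) in 6 gene classes, with 1 point per WT library (x axis) and the mean with its SD at the right. Contractile shares lie between 7.77 and 8.5%, while noncoding shares range from 3.1 to 6.63%.

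The protein-coding nuclear gene with the highest level per length was Acta2, smooth muscle alpha-actin, the main actin of the contractile thin filament. Acta2 was at 22288, 25595, 28884 and 25352 TPM in WT-1 to WT-4, a mean of 25529.6 ± 2696 TPM, and it was the first of these genes in every library. Tagln, the actin-binding protein transgelin used as a smooth muscle marker, followed at 10664, 11677, 11719 and 10312 TPM. Tagln was above the third gene, Myl9, in 2 of 4 libraries only. The lead of Acta2 over the nonmuscle actin Actb was a TPM ratio of 9.78 ± 1.17 (range 8.26 to 11.1), and over Actg2, the smooth muscle gamma-actin of visceral muscle, a TPM ratio of 38.9 ± 3.99 (range 33.5 to 42.6).

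Of the 20 leading nuclear coding genes by TPM, 8 were contractile and 3 were matrix genes. After Acta2, Tagln and Myl9 came Igfbp7, a secreted binding protein of insulin-like growth factors, at 8423 ± 630.2 TPM. Mgp, an inhibitor of vessel wall calcification, was at 6705 ± 350.4 TPM. The next genes were Dstn at 5201 ± 943 TPM and Tmsb4x at 5147 ± 659 TPM, which encode the actin-severing protein destrin and the actin-sequestering peptide thymosin beta 4. Their order held in 2 of 4 libraries, so their levels could not be ranked. Of the 19 neighbouring pairs in this order, 7 kept their order in all 4 libraries and 12 did not. The ribosomal genes Rplp1 and Rps15, the translation factor Eef1a1, Cpe and Lgals1 completed the order together with Myh11, Sparc, Csrp1, Bgn, Flna, Vim, Actb and Myl6, all between 2457 TPM (Myl6) and 4796 TPM (Myh11).

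**Figure D2:**
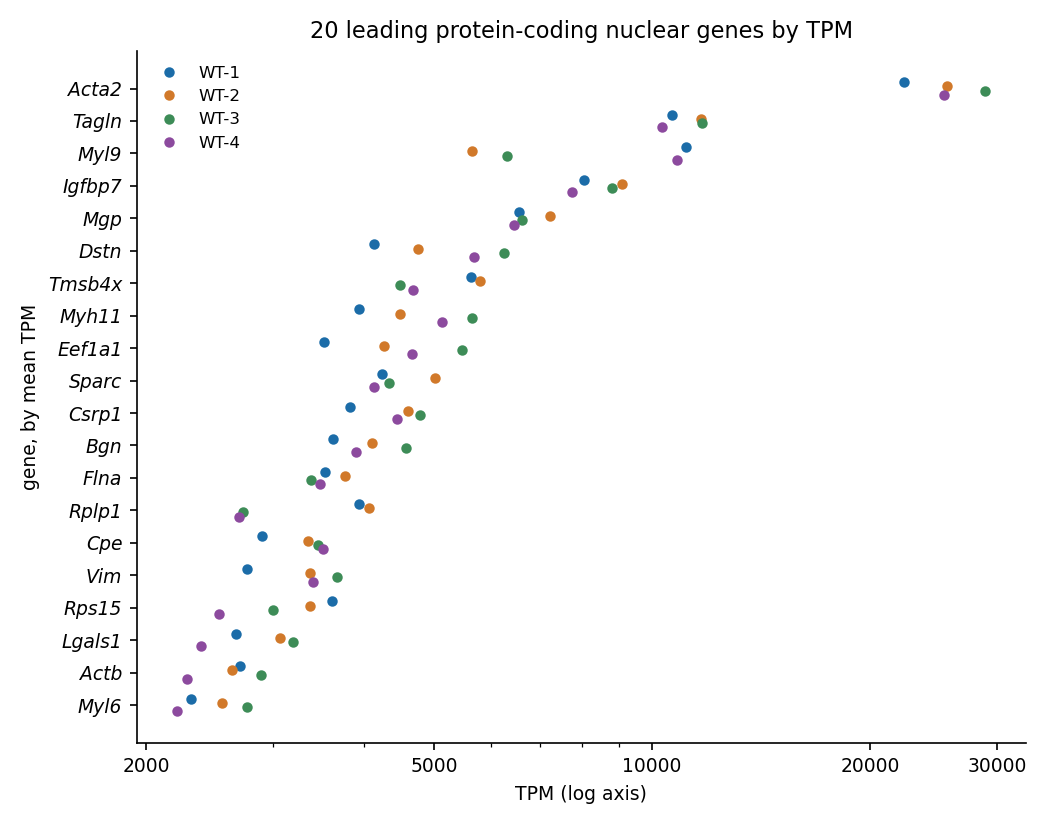
TPM (x axis, log) of the 20 leading protein-coding nuclear genes (y axis, ordered by mean TPM), with 1 point per WT library. Acta2 lies apart at the top in every library, and Myl9 splits into WT-1 and WT-4 at 11160.5 and 10841 TPM and WT-2 and WT-3 at 5644 and 6306 TPM.

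By share of counts, which favours long transcripts, the order differed. The first place went to the noncoding Gm42418, at 46731, 28569, 18906 and 34902 CPM, followed by Acta2 at 15876, 16841, 18617 and 15950.4 CPM. Myh11 and Flna, which encode the large proteins smooth muscle myosin heavy chain and filamin A, took 10912 ± 1265 CPM and 10016 ± 784 CPM. The 20 highest genes by CPM held 5 contractile, 4 matrix, 6 mitochondrial and 2 noncoding genes, and 4 of their 19 neighbouring pairs kept the order in all 4 libraries. The others among the 20 were Itga8, the integrin alpha 8 chain, at 4581 ± 769 CPM, Tns1, the focal adhesion protein tensin 1, at 4142 ± 195 CPM, and Eef1a1 at 3341 ± 481 CPM. Genes that overlap a gene on the other strand are uncertain, since the strand setting of the counting is not given in the sources used here. Among the genes named here these include Gm42418, AY036118, Tagln, Igfbp7, Mylk, Itga8, Eln, Col4a1, Col4a2, Col15a1, Eng, Nos3 and Malat1.

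Among the 8 thin filament genes, levels ran from 469 TPM (Tpm1) to 25529.6 TPM, with a median of 1643 TPM. Tpm2, the main smooth muscle tropomyosin along the actin filament, was at 1850.2, 2071, 2465 and 1928 TPM, and Cnn1, the calponin that binds actin and myosin, was at 1859, 2040.1, 1891 and 1760.4 TPM. Tagln and Cnn1 kept a TPM ratio of 5.88 ± 0.22 (range 5.72 to 6.2). Smtn, the actin-associated smoothelin of contractile cells, varied little, with a CV of 2.82%. Cald1, caldesmon, varied most in this list, with 823, 497, 577 and 526 TPM in WT-1 to WT-4, so that WT-1 lay above the other 3 libraries.

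Within the 8 genes of the thick filament and its regulation, Myh11 was at 3935, 4484, 5639 and 5125 TPM, and Acta2 exceeded it by a TPM ratio of 5.36 ± 0.383 (range 4.95 to 5.71). Myl9, the regulatory light chain whose phosphorylation by myosin light chain kinase starts contraction, was at 11160.5, 5644, 6306 and 10841 TPM. WT-1 and WT-4 were high and WT-2 and WT-3 low, with no library between them. The essential light chain Myl6 showed no such split, with 2309, 2545, 2762 and 2210.3 TPM, and the TPM ratio of Myl9 to Myl6 was 3.56 ± 1.51 (range 2.22 to 4.9). By CPM, Myl9 was below Myl6 in WT-2 and WT-3, at 1965 and 2151 against 2430 and 2584 CPM. Their merged exons were 1162 and 3187 bases long, so the direction in WT-2 and WT-3 rests on the division by length. With the length of the longest transcript, the means of Myl9 and Myl6 were 7025 and 2065 TPM. The kinase gene Mylk was at 789 ± 65.9 TPM. Ppp1r14a, an inhibitor of myosin phosphatase, was at 568 ± 64.8 TPM, and the phosphatase subunit genes Ppp1r12a, Ppp1r12b and Ppp1cb were at 175 to 401 TPM.

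The 15 genes of filaments, dense bodies and adhesion plaques had a median level of 344 TPM. Csrp1, a LIM protein of the actin cytoskeleton, led at 4417 ± 414 TPM, followed by Flna at 3538 ± 163 TPM and the intermediate filament gene Vim at 3301 ± 387 TPM. Lmod1, a leiomodin that nucleates actin filaments in smooth muscle, was at 1434 ± 162 TPM. The muscle intermediate filament gene Des was far lower than Vim, at 93.1, 111, 118 and 81.6 TPM, and each library had the same order of the pair. Tln1, the integrin adaptor talin 1, had a CV of 1.82% and was among the 10 genes of lowest CV above 100 CPM.

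The CArG box or a close form of it stood in the 250 bases before a RefSeq start (build GRCm38.p6) of 6 contractile genes, with the strict form in Myl6, Myl9 and Vcl, and only the form with a single G or C in its run of A and T in Acta2, Pdlim3 and Synm. Stretches of Myl9 and Vcl are shown because they hold the strict form outside the exons of the GENCODE annotation, whereas the windows of Acta2 and Myl6 overlap annotated exons of other transcripts. Each is read 5′ to 3′ on the strand of its gene, and capitals mark either form. The stretch of Myl9 is at chr2:156775283-156775394 (plus strand) and that of Vcl at chr14:20929151-20929200 (plus strand).
Myl9: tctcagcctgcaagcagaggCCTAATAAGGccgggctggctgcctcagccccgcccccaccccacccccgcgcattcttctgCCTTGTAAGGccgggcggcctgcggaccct
Vcl: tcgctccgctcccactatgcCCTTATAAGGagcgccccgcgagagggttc
The capitals of Myl9 begin 161 and 99 bases before its start, and that of Vcl, the adhesion plaque protein vinculin, 227 bases. The table gave promoters for 27 of the 31 contractile genes, 31 windows in all, and 4 genes, among them Tagln, Myh11 and Actg2, had none in it. The strict form, read on both strands, stood in 3 of these 31 upstream windows and the wider form in 6, against 1.47% and 8.59% of all 32851 windows. A match says only that the letters are there.

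Regulators of the contractile program were expressed at a far lower level than its structural genes, with a median of 36.5 TPM over 10 genes. Srf, serum response factor, led at 164, 205, 176 and 205 TPM. The cofactor gene Myocd, myocardin, was at 31, 42.3, 33.4 and 67.5 TPM, and WT-4 exceeded the other libraries. Mef2d and Klf4, a MADS-box factor and a zinc finger factor of phenotypic change, were at 116 ± 11.5 TPM and 92.4 ± 6.47 TPM. Gata6 followed at 49.5 ± 6.78 TPM. The lowest was Tead1 at 5.62, 2.04, 2.21 and 3.32 TPM, whose CV of 55.8% was the widest of the list.

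The elastic fibre gene of highest level was Eln, elastin, the core of the elastic sheets, at 2058, 2726, 1726 and 1914 TPM in WT-1 to WT-4. WT-2 lay above the others, and the CV of 21.9% was above the median of 11.8% over the detected elastic fibre genes and below that of Mfap5 alone, 26%. The microfibril gene Fbn1, fibrillin 1, was at 163 ± 18.8 TPM, so that the TPM ratio of Eln to Fbn1 was 13.1 ± 3.26 (range 10.3 to 16.8). Fbn2 had no count in any library, although 17 of the 18 elastic fibre genes were detected. Mfap4, a microfibril-associated glycoprotein, was at 887 ± 46.9 TPM, Ltbp4, a latent TGF-β binding protein, at 725 ± 56.6 TPM and Loxl1, an elastin crosslinking enzyme, at 492 ± 29.7 TPM. The other detected members lay between 37 TPM (Efemp1) and 385 TPM (Fbln5, the fibulin that guides elastin assembly).

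Of the 11 fibrillar collagen genes, 8 were detected, and those of types I and III stood highest. Col1a1 was at 1587, 1832, 1559 and 1499.7 TPM, Col3a1 at 1021, 1173, 1121 and 1136 TPM and Col1a2 at 924, 1096, 953 and 1043 TPM. Type I collagen is assembled from the products of Col1a1 and Col1a2, whose TPM ratio was 1.62 ± 0.123 (range 1.44 to 1.72), and type III collagen from that of Col3a1 alone. By CPM the order of Col1a1 and Col1a2 was the reverse in each library, at 3201 ± 355 and 3748 ± 249 CPM. Their merged exons were 6563 and 12426 bases long, so the direction of the ratio depends on the lengths used. Col5a1 and Col5a2, which encode chains of the type V collagen that nucleates fibrils, were at 360.2 and 193 TPM. Col2a1, Col11a1 and Col24a1 were not detected, with means of 0.0603 to 0.124 TPM. Col27a1 and Col11a2 were detected at 13.7 and 2.45 TPM, and Col5a3 was low and uneven, with 10.6, 8.32, 3.26 and 4.75 TPM. All 44 collagen genes together took 2.24, 2.48, 2.21 and 2.24% of the counts, and 29 were detected.

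Basement membrane genes were led by Col18a1, a multiplexin collagen, at 1116, 1439.6, 1162 and 1294 TPM. Col4a1 and Col4a2, the chains of the most common type IV collagen network, were at 607, 773, 686 and 719 TPM and 596, 736, 679 and 691 TPM, a TPM ratio of 1.03 ± 0.0184 (range 1.01 to 1.05). These genes lie head to head on chromosome 8, with annotated starts at 11312826 (Col4a1, minus strand) and 11312805 (Col4a2, plus strand), so their first bases overlap on opposite strands. The pair on the X chromosome, Col4a5 and Col4a6, starts 1308 bases apart and kept a TPM ratio of 1.36 ± 0.0411 (range 1.33 to 1.42). Col4a3 and Col4a4 were at 14 and 23 TPM.

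Laminin genes spanned a wide range of levels. Laminin is a trimer of an alpha, a beta and a gamma chain. Lamb2 was at 607, 709.9, 682 and 701 TPM and Lamb1 at 3.71, 4.47, 4.41 and 5.86 TPM, a TPM ratio of 149 ± 20 (range 119.7 to 164). Lamc1 was the leading gamma chain gene at 165 ± 25.3 TPM, before Lamc3 at 85.5 ± 9.71 TPM. Among alpha chains, Lama5 was at 108, 126, 98.3 and 112 TPM and Lama4 at 67.5, 72, 90.9 and 98.3 TPM in WT-1 to WT-4, an order held in all 4 libraries. Lama1 had no count in any library. Hspg2, which encodes the heparan sulfate proteoglycan perlecan, was at 454 ± 46.8 TPM, and Col15a1, the other multiplexin, was at 519 ± 81.3 TPM.

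The proteoglycan with the highest level was Bgn, the collagen-binding biglycan, at 3631, 4101, 4570.4 and 3903 TPM, which was 54.1% of the TPM of the 9 proteoglycan genes. With the length of the longest transcript in place of the merged exons its mean was 7429.7 TPM. Ogn, Prelp and Dcn, further small leucine-rich proteoglycans, were at 1253 ± 226 TPM, 1118 ± 134 TPM and 558 ± 57.7 TPM. The large aggregating proteoglycans Vcan and Acan were the lowest, at 42.3 ± 8.24 TPM and 35.3 ± 5.94 TPM.

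Matricellular and other matrix genes were led by Mgp, at 6546, 7220.0, 6612 and 6442 TPM, and by Sparc, a collagen-binding matricellular protein, at 4236, 5008, 4339 and 4134 TPM. The CCN genes Ccn2 and Ccn1, which respond to stretch and to serum response factor cofactors, spread more widely, with 1606, 2279, 1494 and 2580.3 TPM for Ccn2 and 1644, 1209.7, 993 and 1048 TPM for Ccn1. WT-1 had the highest Ccn1 level but not the highest Ccn2 level. Fn1, fibronectin, was at 719.7 ± 100.1 TPM. Thbs1, thrombospondin 1, was at 8.45, 20.5, 22.4 and 29.2 TPM, with WT-1 below the others. Spp1, osteopontin, was the single member not detected by the CPM limit, at 3.27 ± 1.9 TPM.

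**Figure D3:**
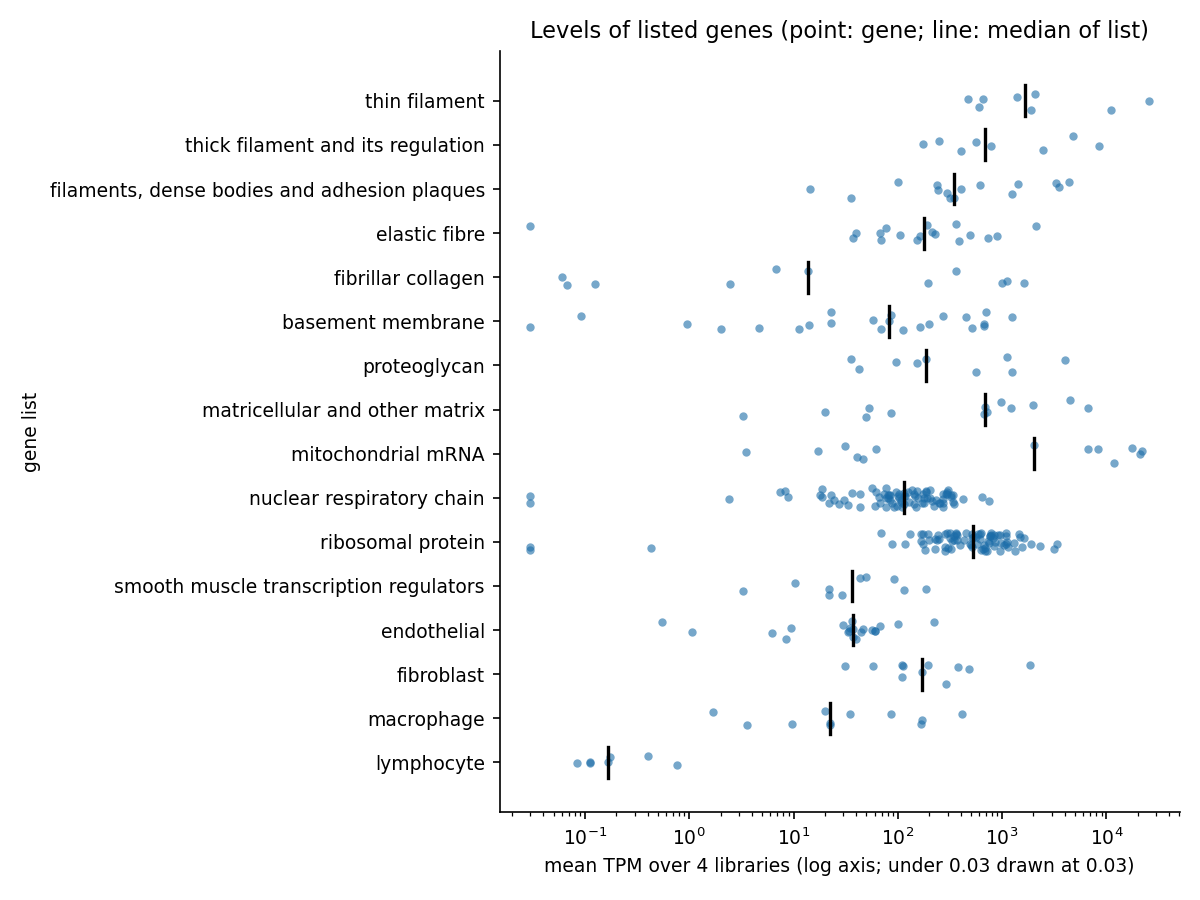
Mean TPM over 4 WT libraries (x axis, log) of the genes of 16 lists (y axis), with 1 point per gene and a line at the median of each list. Thin filament genes lie at the high end with a median of 1643 TPM, and lymphocyte genes lie at the low end with a median of 0.167 TPM. Genes under 0.03 TPM are drawn at 0.03.

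The mitochondrial chromosome encodes 13 proteins of the respiratory chain, 2 ribosomal RNAs and the transfer RNAs. Its genes took 4.44, 2.98, 4.36 and 2.62% of the counts in WT-1 to WT-4, with WT-1 and WT-3 high and WT-2 and WT-4 low. Without WT-1 the mean share was 3.32%. The 7 genes mt-Co1, mt-Cytb, mt-Nd1, mt-Nd2, mt-Nd4, mt-Nd5 and mt-Nd6 lay between 2033 and 22126 TPM. The highest of them was mt-Co1, a catalytic subunit of cytochrome oxidase, at 25759.6, 18868, 26496 and 17379.6 TPM. Next came mt-Cytb, cytochrome b, at 23769, 17927, 26065 and 15686 TPM.

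The other 6 mitochondrial mRNAs were listed at far lower levels, between 3.53 and 62 TPM. The second oxidase subunit, mt-Co2, was at 66.8, 54.5, 78.8 and 47.9 TPM, so that mt-Co1 exceeded it by a TPM ratio of 358 ± 21.6 (range 336 to 386). mt-Co3 was at 37, 37.3, 32.1 and 19.3 TPM and mt-Atp6, a subunit of ATP synthase, at 13.3, 0.38, 0.209 and 0.229 TPM. These 6 genes, mt-Co2, mt-Atp8, mt-Atp6, mt-Co3, mt-Nd3 and mt-Nd4l, lie next to each other between positions 7013 and 10173 of the mitochondrial chromosome.

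A run of 7 annotated copies of this stretch lies on chromosome 1, from 24611535 to 24616197. The copies Gm28661, Gm10925, Gm28437 and Gm10222 matched mt-Co2, mt-Atp6, mt-Co3 and mt-Nd4l in all of 681, 678, 783 and 294 aligned bases. Gm28438 differed from mt-Nd3 at 1 of 345 aligned bases, T3C, counted from the first base of mt-Nd3. The start of this pair is shown because the capital marks the only base that tells them apart. The mitochondrial stretch is chrM:9459-9518 (GRCm38, plus strand) and the copy is chr1:24613060-24613119 (minus strand).
mt-Nd3: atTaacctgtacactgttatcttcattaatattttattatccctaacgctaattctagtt
Gm28438: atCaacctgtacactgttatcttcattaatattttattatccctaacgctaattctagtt
mt-Co1 and mt-Nd4, which were listed at high levels, shared 492 of 1545 and 876 of 1378 bases with a copy, with 6 differences and none. The genes mt-Nd1, mt-Nd2, mt-Nd5, mt-Nd6 and mt-Cytb shared no identical run longer than 16 bases with any of the 7 copies. The copies themselves were at 20.1 TPM (Gm28438) to 79.3 TPM (Gm10925), and together took 66.2 ± 16.5 CPM, against 29.9 ± 7.94 CPM for the 6 low genes and 33702 ± 8817 CPM for the 7 high ones. The values of the 6 low genes are uncertain as levels, and the part of the shared sequence in them was not tested. mt-Atp8 shared a run of 43 bases with Gm10925, whose stretch begins inside it.

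Nuclear genes of the respiratory chain had a median CV of 12.8%, against 25.8% for mitochondrial mRNAs. The 85 listed genes took 0.583% ± 0.0492 of the counts, with 0.606, 0.641, 0.543 and 0.54%, and 80 were detected. WT-2 was highest for 49 and WT-4 lowest for 40 of these 80, beside 28.5% and 22.5% of all detected genes. The leading genes were the oxidase subunits Cox6a1, Cox8a and Cox6b1 at 745 ± 57.2 TPM, 644 ± 104 TPM and 422 ± 36.9 TPM, and Uqcr10 of complex III at 348 ± 63.1 TPM. The muscle and testis forms Cox6a2, Cox7b2 and Cox8c were at 2.41, 0 and 0 TPM. For mitochondrial mRNAs WT-4 was also the lowest library, for 10 of 11 detected genes, and WT-1 or WT-3 was highest for each of the 11. Over all detected genes, WT-1 and WT-3 were highest for 20.6% and 21.7%.

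The 2 mitochondrial ribosomal RNAs mt-Rnr2 and mt-Rnr1 were at 3314 ± 832 TPM and 2163 ± 429 TPM. Of the 85 cytosolic ribosomal protein genes 82 were detected, and together they took 2.68% ± 0.268 of the counts. WT-4 was lowest for 55 of these 82, beside 22.5% of all detected genes. Rplp1, Rps15, Rps3a1 and Rpl23a led, at 3357, 3126, 2316 and 1905 TPM.

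The endothelial gene of highest level was Pecam1, a junctional adhesion molecule, at 135, 185, 282 and 281 TPM. WT-1 was lowest, and WT-3 and WT-4 were about equal. Eng, a TGF-β co-receptor, was at 85.5, 114, 94.3 and 105 TPM, the transcription factor gene Erg at 67.4 ± 11.7 TPM and the junction gene Esam at 60.9 ± 8.45 TPM. The defining markers Cdh5, VE-cadherin, Nos3, endothelial nitric oxide synthase, and Vwf, von Willebrand factor, were at 33.6 ± 11.9 TPM, 43.9 ± 7.21 TPM and 36.8 ± 11.8 TPM. Kdr, the main receptor of vascular endothelial growth factor, was far lower at 0.845, 1.38, 1.09 and 0.985 TPM, and Robo4 missed the CPM limit at 0.552 ± 0.165 TPM. The TPM ratio of Pecam1 to Kdr was 209.6 ± 73.8 (range 135 to 285). Summed endothelial counts were 0.102, 0.132, 0.15 and 0.159% of the libraries, 0.147% on average without WT-1. WT-1 was lowest for 15 of the 20 detected endothelial genes, and it was lowest for 36.3% of all detected genes.

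Fibroblast genes stood at higher levels, with a median of 170.4 TPM against 36.8 TPM for endothelial genes. Gsn, the actin-severing gelsolin that other mesenchymal cells also express, led at 1541, 1889.8, 1651 and 2295 TPM and held 48.7% of the TPM of the list. Dcn, which the study used to mark fibroblasts, was counted with the matrix genes instead. Clec3b and Dpt, a plasminogen-binding lectin and the matrix protein dermatopontin, were at 483 ± 75.6 TPM and 376 ± 60 TPM, and Serpinf1 was at 292 ± 56.3 TPM. The receptor gene Pdgfra, a defining marker of fibroblasts, was the lowest of the 11 at 24.8, 30.1, 31.6 and 39.4 TPM. The summed share was 0.311, 0.331, 0.287 and 0.379%, with WT-3 lowest for 8 of 11 genes, against 27.1% of all detected genes.

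Macrophage genes were all detected, 11 of 11, beside 55.2% of all protein-coding genes. Their median level was 22.4 TPM and their median CV was 14.5%. Lyz2, lysozyme, was at 426, 434, 360.1 and 441 TPM, and the complement genes C1qa, C1qb and C1qc at 171, 167 and 85.5 TPM. The defining markers Csf1r, Cd68 and Adgre1 were at 35.1, 22.1 and 9.7 TPM. None of the 7 lymphocyte genes, which mark T and B cells, reached 1 CPM in all libraries. Their median level was 0.167 TPM, and Cd3e, Cd4 and Cd8a were at 0.111, 0.167 and 0.175 TPM.

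Genes of blood, fat, other muscle, nerve and mesothelium were also measured, and red cell genes had the widest spread of all lists, with a median CV of 80.9%. The globin genes Hbb-bs and Hba-a1 were at 619.6, 331, 185 and 114 TPM and 183, 85.1, 50.2 and 28.8 TPM. WT-1 was highest for 4 of the 4 detected red cell genes, beside 20.6% of all detected genes. Of these red cell genes, Hbb-bt and Alas2 were at 37 ± 30.2 TPM and 5.51 ± 3.71 TPM. Hba-a2, a near-identical copy of Hba-a1, is uncertain, with 102, 37.6, 0 and 0 TPM. For 5 of 5 detected white fat genes, of 6 listed, WT-2 was highest and WT-4 lowest. Over all detected genes these shares were 28.5% and 22.5%. Cfd, Fabp4, Adipoq and Plin1 were at 159 ± 60.3 TPM, 61.5 ± 13.7 TPM, 27.5 ± 11.2 TPM and 8.61 ± 3.9 TPM. Of 4 brown fat genes Cidea alone was detected at 40.6 ± 1.65 TPM and the defining Ucp1 was at 9.68, 8.86, 10.7 and 0 TPM.

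Cardiac muscle genes summed to 0.0164% ± 0.00258 of the counts, with 7 of 8 detected. Single members spread more widely than this sum, with a median CV of 37.6% over the detected genes. Actc1, Myh6 and Myl7 were variable by the rule given below, 3 of 7, beside 4.09% of all detected genes. Myh6 was at 15.8, 3.37, 4.51 and 23.1 CPM. Myl7, the atrial light chain, was at 34.7, 7.67, 7.71 and 21.4 TPM, and Actc1, cardiac actin, at 14, 6.64, 8.7 and 20.6 TPM. Ryr2 and Tnnt2 were at 12 ± 1.23 TPM and 10.9 ± 3.68 TPM. Of 8 skeletal muscle genes only Ckm and Tnnt3 were detected, at 6.09 ± 0.674 TPM and 4.88 ± 0.746 TPM, and Myh1 and Myh2 had no count in any library. Of 5 Schwann cell genes 3 were detected, among them Prx and S100b at 14.9 and 12.7 TPM. Of 5 mesothelial genes 2 were detected, with Upk3b and Msln at 7.17 and 3.42 TPM. The part of these tissues in the shares above was not tested.

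Noncoding genes were dominated by Gm42418, a locus on chromosome 17 from 39846958 to 39848788 (plus strand) that is known to resemble ribosomal RNA sequence, at 46731, 28569, 18906 and 34902 CPM in WT-1 to WT-4. The order of libraries was the same for AY036118, which lies inside it on the other strand, at 345, 186, 101 and 202 CPM. Without a known strand setting, both loci may hold the same reads, so the shared order is uncertain and its cause was not tested. All noncoding genes took 6.63, 4.24, 3.1 and 4.73% of the counts, and without Gm42418 the share was 1.45% ± 0.348. Malat1, a nuclear transcript of speckles, was second at 9333, 5059.5, 4267 and 4353 CPM, so that WT-1 was far above the other libraries, which lay close together. With Malat1 also left out the noncoding share was 0.872% ± 0.109, and without WT-1 the noncoding mean was 4.02%.

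The listed noncoding genes below these were of moderate level. Rn7sk, which holds an elongation factor inactive, was at 453 ± 92.3 TPM. Carmn, a smooth muscle transcript annotated next to the miR-143 and miR-145 genes, was at 188, 165, 128 and 113 TPM. Neat1, the scaffold of paraspeckles, was at 172, 144, 102 and 125 TPM. The TPM ratio of Malat1 to Neat1 was 19.7 ± 3.29 (range 16.8 to 24). Gas5, a host of small nucleolar RNAs, was the most even of the listed genes, with 61.2, 60.5, 65.7 and 61.5 TPM. H19 missed the limit at 1.69 TPM, and Xist and Tsix were at 0.0725 and 0.0827 TPM. WT-1 was highest for 13 of the 15 detected members of this list, against 20.6% of all detected genes.

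The short locus of mmu-miR-6236 on chromosome 9 was listed at 11553, 6526, 3084 and 7219.5 TPM, a value of 267 ± 145 CPM on an annotated feature of 123 bases. The libraries were not made for small RNA, so this does not measure the mature miRNA. WT-1 was highest and WT-3 lowest, as for Gm42418. The mature sequence, at chr9:110281353-110281371 (plus strand, GRCm38.p6), is shown from RefSeq to mark the locus, with the seed (bases 2 to 8) in capitals.
mmu-miR-6236: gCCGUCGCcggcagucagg

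The spread among the 4 libraries narrowed as the level rose. The median CV was 22.9% for the 1101 genes with a mean of 1 to 3 CPM, 12.8% for the 3686 genes of 10 to 30 CPM and 9.2% for the 94 genes of 1000 CPM or more. Over all 12957 detected genes it was 13%, and the median biological coefficient of variation (BCV), the edgeR estimate of spread beyond counting error, was 0.115. Any pair of libraries differed by a median of 1.12 to 1.2-fold, and 2.44 to 4.19% of detected genes differed by over 2-fold. Across these 12957 genes, which are not independent replicates, Pearson's r of log2 CPM was 0.973 to 0.983. The chi-square of the counts of a pair was 31.3 to 55.4 per gene, where counting error alone gives about 1, so no pair looked like a library deposited again.

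A gene was called variable where its BCV was over 2 times the trend of genes at its level, which held for 530 of 12957 genes, a background of 4.09%. Variable members numbered 2 of 31 contractile genes (Cald1 and Myl9), 3 of 67 matrix genes (Ccn1, Col5a3 and Thbs1), 2 of 20 endothelial genes (Emcn and Tek) and 0 of 11 fibroblast genes. They numbered 4 of 17 genes of the mitochondrial chromosome (mt-Nd1, mt-Nd2, mt-Nd5 and mt-Rnr2) and 25 of 504 noncoding genes. Median CVs were 8.7% for contractile, 11.3% for matrix, 17.2% for endothelial, 15.3% for fibroblast, 25.8% for mitochondrial and 18.9% for noncoding genes. The contractile and matrix medians were thus below that of all detected genes, and the other 4 were above it. CV fell with level, however, and was 10.3% at 100 to 300 CPM and 9.2% at 1000 CPM or more. These class medians were not compared with genes of equal level.

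**Figure D4:**
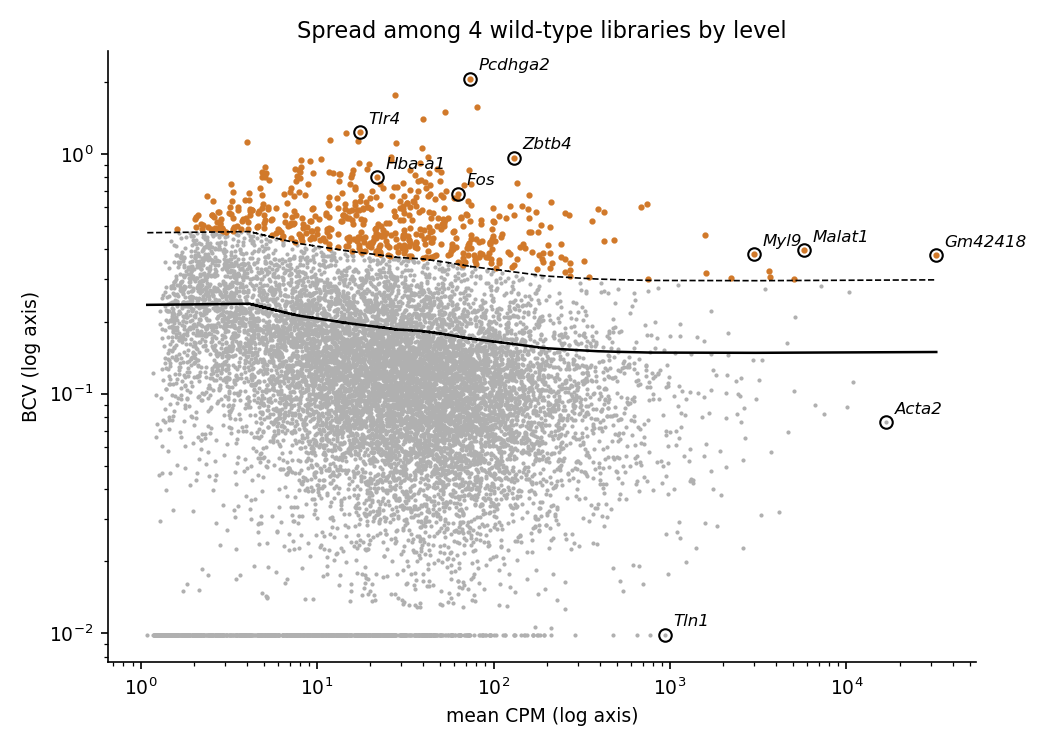
BCV (y axis, log) against mean CPM (x axis, log) for the 12957 detected genes, with the trend as a solid line and 2 times the trend as a dashed line. The 530 variable genes are coloured and selected genes are ringed, with Acta2 under the trend and Pcdhga2 at the top. The row of points at the bottom holds genes whose estimate reached the lower limit of the fit.

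Of the 10 genes with the widest spread over the trend at 10 CPM or more, 7 belonged to the gamma protocadherin cluster on chromosome 18. These genes encode cell adhesion proteins, each with its own first exon and with last exons that all members share. Pcdhga2 was at 1.56, 1.63, 291 and 1.74 CPM, Pcdhgb4 at 6.88, 282, 3.55 and 28.5 CPM, Pcdhgb2 at 136, 5.7, 8.47 and 7.96 CPM and Pcdhga9 at 4.95, 1.82, 48.3 and 156 CPM. A different member was highest in each library, namely Pcdhgb2 in WT-1, Pcdhgb4 in WT-2, Pcdhga2 in WT-3 and Pcdhga9 in WT-4, and it held 32, 65.2, 62.3 and 38% of the counts of the cluster. The sum over all 22 members was even, at 426, 432, 467 and 411 CPM (434 ± 23.8). Members share exon sequence on 1 strand, so the value of a single member is uncertain, and the part of the counting in this pattern was not tested. The other members of high spread here were Pcdhgb8, Pcdhgb6 and Pcdhga12.

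**Figure D5:**
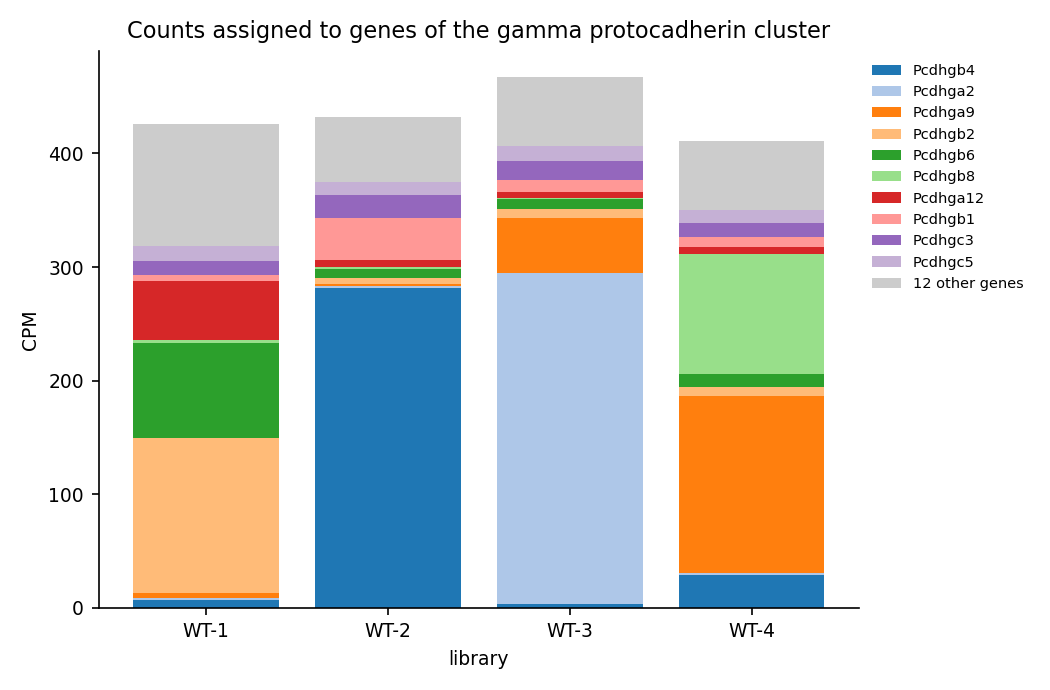
CPM (y axis, from 0) assigned to the 22 genes of the gamma protocadherin cluster in each WT library (x axis), stacked by gene with the 10 highest named. The stacks reach a similar height, from 411 to 467 CPM, while the gene that fills them changes from library to library.

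The other 3 of the 10 were Tlr4, the receptor of bacterial lipopolysaccharide, Zbtb4, a zinc finger repressor, and Gas7, a growth arrest gene. Tlr4 was at 2.11, 31.4, 34.5 and 2.1 CPM, Zbtb4 at 52.3, 20.6, 233 and 216 CPM and Gas7 at 3.48, 3.76, 3.92 and 47 CPM in WT-1 to WT-4. Tlr4 and Zbtb4 each had a low and a high pair of libraries, and Gas7 was high in WT-4 alone. An exon shared with another gene on the same strand was present for 17% of the 530 variable genes and 8.8% of the 12427 others. WT-1 was the highest library for 167 of the 530 (31.5%, beside 20.6% of all detected genes). It was the lowest for 152 (28.7%, beside 36.3%).

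The most even genes above 100 CPM varied by under 2%. Mdh1, malate dehydrogenase, was at 115, 117, 117 and 115 CPM, Cers2, a ceramide synthase, at 149, 153, 152 and 151 CPM and Tacc1 at 208, 214, 210.3 and 214 CPM. The others were Flii, Itsn2, Itih4, Ctdspl, Tln1, Purb and Ifitm3, with CVs of 1.61 to 1.89%. For Mdh1, Cers2, Tacc1, Itih4 and Tln1 the BCV estimate was at the lower limit of the fit, 0.00988. Spread this small is not resolved from counting error, and the genes were picked for a low CV, so they cannot be ranked by evenness. Among 12 genes often used as references, Eef1a1 and Actb were at 4478 ± 806 TPM and 2625 ± 253 TPM, B2m and Eef2 at 1747 ± 369 TPM and 1721 ± 198 TPM, and Ubb had the lowest CV, 2.69%. Gapdh was listed at only 36.9, 37.3, 49.5 and 41.1 TPM. It runs from 125161715 to 125166467 on chromosome 6 and overlaps Iffo1 on the other strand, at 26.5 ± 2.16 TPM, only up to 125161782. The level of Gapdh is uncertain, and the cause of its low value was not tested.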

How the data were processed

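Total RNA of thoracic aortas was sequenced in bulk. Per the study's methods and the submitters' processing notes, reads were trimmed with Trim Galore, aligned with HISAT2 to GRCm38 (mm10) and assembled with StringTie on GENCODE M15 models. Estimated counts, 1 whole number for each gene and library without depth scaling, were deposited by the authors. The step from coverage to counts and the strand setting are not given in the sources used here. The 4 WT columns were used, matched to WT-1 to WT-4 by an inference: 1 column code runs from 1 to 4 and the other from 1 to 2, as the titles do. The 2 other columns were not used.

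Gene IDs were matched to GENCODE M21 (52489 of 52636), which gave types, positions and merged exon lengths. The 147 unmatched IDs took 0.0334 to 0.0389% of counts and got no TPM. CPM used column totals. BCV came from edgeR 4.0.16 (1 group, TMM, no shrinkage), checked on simulated data, with DESeq2 1.42.0 as an alternative. Alternatives also varied scaling, denominator, length, filters and left out each library. Python 3.11.15 and R 4.3.3 were used. No test between groups was made.

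Named genes were the 20 highest by CPM, the 20 highest nuclear coding genes by TPM, genes of 30 lists (the leading 4 in full), the 10 of highest BCV over trend at 10 CPM or more and the 10 of lowest CV at 100 CPM or more. Further genes, among them Des, Kdr, Tead1, Thbs1, Sost, Mir6236 and the gamma protocadherin genes, were named after their values were seen. The members and lists were chosen with earlier results of these data known. Some listed genes are not reported here.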

Additional observations from a re-analysis of the deposited data

Results flagged for a closer look

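With 4 libraries, a value counts as set apart where its gap to the nearest other library is most of the whole range (Dixon's 95% limit), and chance alone sets apart about 1 in 20 groups of values. Of 77 sets of values examined, 7 were set apart. The matrix share of WT-2, 6.87%, lay above 6.25 to 6.28% in the others, and within it the matricellular share of WT-2 was 1.78% against 1.62 to 1.63%. The 10 highest genes of WT-1 took 13.4% of its counts, and Malat1 stood at 9333 CPM in WT-1 against 4267 to 5059.5 CPM. Tns1 and Cpe were lowest in WT-1, at 3852 and 2448 CPM. Tagln was lowest in WT-4, at 5873 CPM against 6838 to 6956 CPM. The causes were not tested.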

How the results depend on the processing

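No paired analysis was possible because the results come from no test between groups. Scaling by TMM or by DESeq2 size factors, and dropping genes under 10 counts in any library, moved no class share by its SD or more. As shares of TPM, matrix was 4.11%, endothelial 0.0964%, fibroblast 0.378%, mitochondrial 9.63% and noncoding 12.1%, each over 1 SD from its share of counts. Noncoding and mitochondrial genes then stood above contractile genes at 7.82%, but noncoding genes other than Gm42418 held 6.34% of TPM. Without Gm42418 and AY036118 the noncoding share of counts was 1.48%. Leaving out 1 of 4 libraries cannot move a mean by 1 SD, so that limit decides nothing here. The noncoding share then ran from 4.02% (without WT-1) to 5.2% (without WT-3). Detected genes numbered 13917 at 0.5 CPM and 10532 at 5 CPM. Variable genes numbered 370 at 10 CPM in all 4, 577 with filterByExpr, 624 with DESeq2, 516 without TMM and 537 to 578 leaving out a library. With the length of the longest transcript, 17 of the 20 leading genes were shared, without Myl6, Rplp1 and Lgals1, and the order began Acta2, Tagln, Mgp, Bgn and Myl9, with Bgn at 7429.7 TPM. The TPM of 12 of the 20 then moved by 1 SD or more. Depth set a floor of 0.116 to 0.138 CPM. No test of the order of genes was made.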

Other observations

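Genes of the circadian clock were all detected, 14 of 14, beside 55.2% of all protein-coding genes. Their median CV was 17.4%. Nr1d1 and Dbp, which peak by day in many tissues, were at 466, 482, 514 and 452 TPM and 454, 450.0, 481 and 440.1 TPM in WT-1 to WT-4. Nr1d2 and Per2 were at 155 ± 34.5 TPM and 90.3 ± 17.6 TPM. The activator gene Arntl, which cycles in the opposite phase, was at 0.526, 1.89, 0.718 and 0.892 TPM, a TPM ratio of Nr1d1 to Arntl of 591 ± 272 (range 255 to 886). The 4 Y chromosome genes Ddx3y, Eif2s3y, Uty and Kdm5d were detected in every library, at 5.3 to 71 TPM. Sost, which encodes the Wnt inhibitor sclerostin known from bone, was at 1983, 2104, 2430.5 and 2761 TPM, which was place 23 among protein-coding nuclear genes by mean TPM. Timp3, an inhibitor of matrix proteases, Fstl1 and Col8a1 were at 851 ± 117 TPM, 1632 ± 98.4 TPM and 5 ± 0.464 TPM.

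Immediate early genes, the first to respond to stimulation or handling, were present in all libraries. Detected members numbered 15 of 15, beside 55.2% of all protein-coding genes. Fos was at 173, 75.7, 57.7 and 40.4 TPM, Egr1 at 201, 145, 94.5 and 81.4 TPM and Jund at 669 ± 97.7 TPM. Jun, Dusp1 and Btg2 were at 282 ± 45.3 TPM, 239 ± 88.5 TPM and 168 ± 61.2 TPM. WT-1 was highest for 13 of the 15, beside 20.6% of all detected genes. Of the 15, 6 were variable (Btg2, Dusp1, Egr1, Fos, Ier2 and Junb) beside a background of 4.09%. Among 9 stress and glucocorticoid response genes, Mt1 and Mt2 were at 237 ± 37.1 TPM and 187 ± 16.4 TPM, and Hspa1b and Hspa1a at 114, 102, 113 and 248 TPM and 102, 100.1, 101 and 201 TPM, both highest in WT-4. Hspa1a and Hspa1b are near-identical genes, so their split is uncertain. The glucocorticoid target Tsc22d3 was also highest in WT-4, at 30.2, 33.7, 33.5 and 66.3 TPM.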
